A study of Homo sapiens with 6 samples.

Results

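The 48 genes described here encode parts of the lysosome and of the autophagy machinery, taken as a fixed list of symbols and matched to the Ensembl identifiers of the deposited count table. All 48 were found among its 61541 Ensembl genes, and all 48 had enough counts to be tested. The list holds 25 lysosomal genes, 21 autophagy genes and the transcription factor genes TFEB and TFE3. The RNA came from luciferases-expressing HepG2 cells, a hepatoblastoma line in which a red luciferase reports transcription from the antioxidant response element (ARE) and a green luciferase serves as the internal control. Both groups carried these reporters. Cells were treated with 100 μM sedanolide, a phthalide of celery, for 24 h (n = 3 libraries) or kept as controls for 24 h (n = 3). Sedanolide was added from a stock in dimethyl sulfoxide, and whether the controls received this solvent is not stated for these samples. Nothing in the labels says that the libraries came from separate cultures, so the p-values measure the spread between libraries, which may be technical.

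Lysosomes are acidic compartments in which hydrolases break down proteins, glycans and lipids, and the vacuolar ATPase pumps in the protons that these enzymes need. In autophagy, cytosolic cargo is enclosed in a double membrane, the autophagosome, which then fuses with the lysosome. TFEB and TFE3 are related transcription factors that enter the nucleus when the kinase complex mTORC1 is inactive, and there they bind a palindromic E-box found near the starts of many lysosomal genes. NRF2, the factor that acts at the ARE, is linked to autophagy through the receptor p62, the product of SQSTM1, which binds the NRF2 inhibitor KEAP1.

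To show where these factors could act, the promoters of the members were read from RefSeq (GRCh38.p14), from 250 bases before to 50 bases after each annotated start. Entries were found for 39 of the 48 members, and those of LAMP2, UVRAG, ASAH1, ATP6V1H, ATP6V1A, PSAP, HEXA, CTSB and ATP6V1B2 were not used here. The letters TCACGTGA, the core of the TFEB and TFE3 E-box, were matched in 5 of 17 lysosomal genes (29.4%) and in 1 of 20 autophagy genes (5.0%), against 234 of 10313 tested genes with a promoter (2.27%) and 0.98% of all promoters of this length. The word is its own reverse complement, and it contains the shorter E-box CACGTG. The 5 lysosomal promoters are shown 5′ to 3′ on the gene's strand, with TCACGTGA in capitals. They are LAMP1 (chr13:113297149-113297244, plus strand), GAA (chr17:80101491-80101580, plus strand), MCOLN1 (chr19:7522534-7522623, plus strand), CTSA (chr20:45891245-45891334, plus strand) and ATP6V0D1 (chr16:67481158-67481247, minus strand).
LAMP1: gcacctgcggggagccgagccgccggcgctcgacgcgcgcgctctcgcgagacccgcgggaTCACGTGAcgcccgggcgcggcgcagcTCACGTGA
GAA: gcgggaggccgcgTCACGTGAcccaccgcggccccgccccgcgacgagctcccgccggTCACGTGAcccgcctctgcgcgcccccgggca
MCOLN1: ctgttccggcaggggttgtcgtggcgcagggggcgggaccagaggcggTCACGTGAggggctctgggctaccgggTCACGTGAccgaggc
CTSA: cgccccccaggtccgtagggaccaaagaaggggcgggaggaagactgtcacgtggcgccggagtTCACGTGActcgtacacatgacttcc
ATP6V0D1: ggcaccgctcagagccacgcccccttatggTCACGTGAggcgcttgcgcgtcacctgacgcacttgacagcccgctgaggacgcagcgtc

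LAMP1, GAA and MCOLN1 held 2 copies each in these windows, and CTSA and ATP6V0D1 held 1. In LAMP1 the copies began 29 and 2 bases before the annotated start. The autophagy gene with a match was ATG3. The ARE core TGACNNNGC, searched on both strands, was matched in 11 of 17 lysosomal genes (64.7%), 2 of 20 autophagy genes (10.0%) and 19.6% of tested genes. The promoters that belong to the largest changes below are those of GLA (chrX:101407900-101407995, minus strand), shown with its ARE core in capitals, and OPTN (chr10:13099992-13100081, plus strand), shown at the first of its 2 annotated starts. Neither held TCACGTGA or CACGTG, and OPTN held no ARE core. Such matches describe letters only and say nothing of binding.
GLA: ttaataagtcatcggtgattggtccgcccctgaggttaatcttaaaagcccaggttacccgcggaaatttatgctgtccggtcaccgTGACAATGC
OPTN: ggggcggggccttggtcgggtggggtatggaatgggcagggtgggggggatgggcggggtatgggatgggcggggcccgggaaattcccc

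Expected counts per library totaled between 16420258 and 26714853. The members took between 0.444% and 0.548% of them. Of the hepatocyte markers fixed for this check, TTR had 554 to 930 counts and the others at least 4687 in every library. By contrast, PTPRC, CSF1R, CD163, MARCO, CDH5, COL1A1 and COL3A1, which mark macrophages, blood, endothelium and fibroblasts, had at most 3 counts in any library. The other markers of these cells were detected, PDGFRB at 96 to 563 counts, PECAM1 at 71 to 137 and AIF1 at 16 to 62, and their part in the results was not tested. The libraries did not separate by treatment first. Component 1 of a principal component analysis of all tested genes held 56.1% of the variance and set controls 1 and 2 and sedanolide 3 (the first side) apart from control 3 and sedanolide 1 and 2 (the second side). The share of mitochondrially encoded transcripts lay between 1.43% and 2.15% in the former libraries and between 4.23% and 5.22% in the latter. For results that move with this split, values with the side as a term in the fit are given beside the main ones.

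Sedanolide changed a small part of the 48 genes. GLA, which encodes the lysosomal α-galactosidase A, rose 2.37-fold, and OPTN, which encodes the autophagy receptor optineurin, fell to 0.539 of its control level. These were the only members past both thresholds, set at a 1.5-fold change and an FDR of 0.05 (edgeR quasi-likelihood test), which is 2 of 48, where 0.674% of all 14104 genes and reporters tested were past both. At an unadjusted p under 0.05, TFE3 was also higher and WIPI1 and NBR1 were also lower. That makes 2 members higher (background 5.35%) and 3 lower (background 6.57%). In all of these 5 members the 3 treated libraries lay on one side of the 3 controls. Over all 48 members such separation was seen in 3 higher (background 8.69%) and 5 lower (background 9.66%), the others being ATG14, which was higher, and CTSA and ATG13, which were lower.

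GLA was at 13.4, 13.8 and 16.1 CPM, that is counts scaled to library size by TMM, in controls 1 to 3 and at 37.6, 36.8 and 28.3 CPM in sedanolide 1 to 3. The groups were far apart, and the lowest treated library was the one on the first side. The log2 fold change was 1.25 with an SE of 0.16 (95% interval 0.88 to 1.62), at an FDR of 0.027 in edgeR. Within the first side the log2 ratio was 1.06 and within the second it was 1.21, and with the side as a term the log2 fold change was 1.13 (edgeR FDR = 0.00067). GLA is on chrX:101393273-101408012 (GRCh38, minus strand). Its exons share 557 bases with those of RPL36A on the opposite strand, a ribosomal protein gene with 887% of its counts, and the strand setting of the authors' counting is not stated. RPL36A had a log2 fold change of 0.03 (unadjusted p = 0.76 in edgeR). When a library was left out, GLA missed the FDR threshold without any one of controls 1 to 3 or sedanolide 1 or 2 (FDR 0.061 to 0.21 in edgeR) and passed it without sedanolide 3 (FDR = 0.0095), and its log2 fold change lay between 1.17 and 1.37. Over all 17 alternative fits the FDR ranged from 1.3e-09 (DESeq2) to 0.48 (edgeR with a replicate block).

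OPTN was at 42.7, 36.9 and 46.7 CPM in the controls and at 22.8, 23.4 and 21.8 CPM in the treated libraries. The treated values lay within 2 CPM of each other and well under the lowest control. Its log2 fold change was −0.89 with an SE of 0.13 (95% interval −1.19 to −0.59; FDR = 0.035 in edgeR), with −0.87 within the first side and −1.02 within the second. Optineurin binds ubiquitin and ATG8 proteins and brings damaged mitochondria and bacteria to the autophagosome. The gene is on chr10:13099449-13138308 (GRCh38, plus strand), and the genes that share exon bases with it had 0 counts. OPTN missed the FDR threshold when any of the 6 libraries was left out (FDR 0.052 to 0.24 in edgeR), with log2 fold changes between −0.98 and −0.81. Over all 17 alternative fits its FDR ranged from 2.4e-07 (DESeq2) to 0.51 (edgeR with a replicate block).

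**Figure D1:**
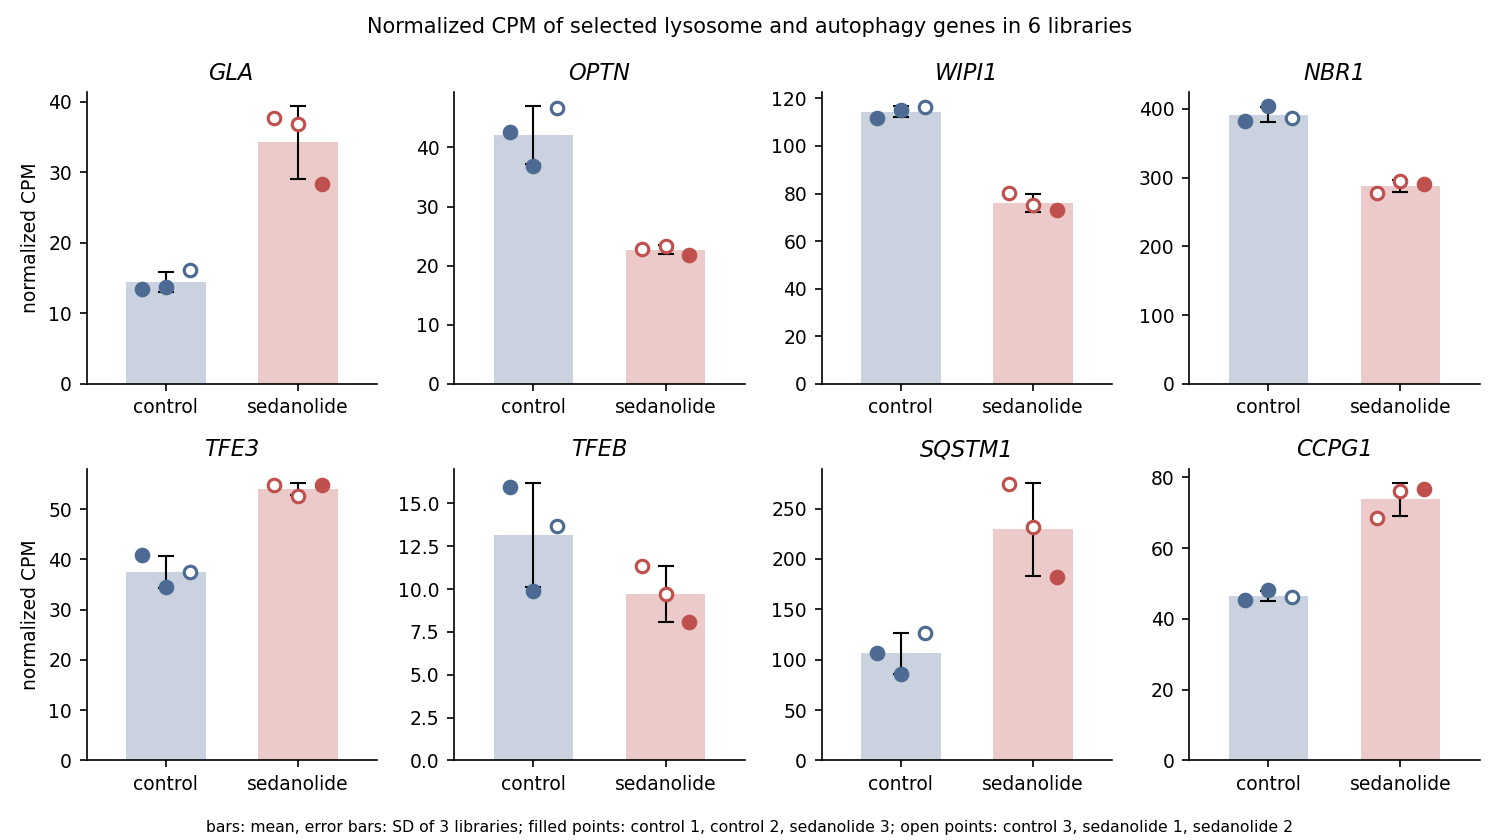
Normalized CPM (y axis, from 0) of 6 members and of the receptor genes SQSTM1 and CCPG1 in control and sedanolide-treated cells. Bars are means and error bars SD of 3 libraries, filled points are controls 1 and 2 and sedanolide 3, and open points are control 3 and sedanolide 1 and 2. GLA, TFE3, SQSTM1 and CCPG1 were higher and OPTN, WIPI1 and NBR1 lower in every treated library, whereas the TFEB groups overlapped.

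The transcription factor genes did not share a direction. TFE3 was at 40.8, 34.5 and 37.4 CPM in the controls and at 54.8, 52.7 and 54.8 CPM after sedanolide. The treated libraries were nearly equal and all above the controls, a log2 fold change of 0.53 with an SE of 0.11 (unadjusted p = 0.0021, FDR = 0.13 in edgeR). The ratio was 0.54 within the first side and 0.52 within the second. The FDR was 0.022 with the side as a term in edgeR and 0.0018 in DESeq2, with a fold change under 1.5 in both, and it ranged from 0.0018 to 0.79 over the 17 alternatives. TFEB was at 15.9, 9.91 and 13.7 CPM in the controls and at 11.3, 9.73 and 8.09 CPM after sedanolide. Its groups overlapped, and the log2 fold change of −0.44 with an SE of 0.21 had an FDR of 0.48 in edgeR. The ratio for TFEB was −0.68 within the first side and −0.38 within the second. With the side as a term its log2 fold change was −0.52 (unadjusted p = 0.023, FDR = 0.17 in edgeR). Over the 17 alternatives the FDR of TFEB ranged from 0.17 to 0.92. Scaled per length, TFE3 rested on more transcripts than TFEB in both groups, at 17.6 ± 1.21 TPM against 9.24 ± 1.77 TPM in controls and 23.1 ± 1.91 TPM against 6.20 ± 0.621 TPM after sedanolide (SD, n = 3). The other members of this family, MITF and TFEC, had at most 8 counts in any library. The activity of these factors is set largely by their location in the cell, which was not measured here.

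Among the lysosomal genes GLA stood alone. The membrane proteins LAMP1 and LAMP2 had log2 fold changes of −0.08 and −0.15, and the calcium channel gene MCOLN1 had 0.46 with an SE of 0.32. MCOLN1 was at 9.03, 6.31 and 11.5 CPM in the controls and 16.0, 13.2 and 7.69 CPM after sedanolide, so the treated library of the first side fell among the controls, and with the side as a term its log2 fold change was 0.18. None of the 3 had an FDR under 0.62 in edgeR.

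Proteases of the lysosome break down the delivered proteins. After GLA, the lowest p among lysosomal genes belonged to CTSA, a carboxypeptidase that also protects neuraminidase, and CTSL, a cysteine protease. CTSA was at 150.4, 137.6 and 146.7 CPM in the controls and at 133.9, 128.2 and 114.5 CPM after sedanolide. All treated values were below the lowest control, yet the log2 fold change was −0.21 with an SE of 0.12 (unadjusted p = 0.11, FDR = 0.53 in edgeR). CTSL was at 40.2, 44.9 and 36.3 CPM in the controls and at 46.8, 42.9 and 54.4 CPM after sedanolide. The groups overlapped, with a log2 fold change of 0.25 and an SE of 0.14 (FDR = 0.54 in edgeR). With the side as a term the log2 fold changes of CTSA and CTSL were −0.25 and 0.33. Both had an unadjusted p under 0.05 in that fit (FDR = 0.18 and 0.099 in edgeR). The aspartic protease gene CTSD, the most abundant member per length at 402.3 ± 64.7 TPM in controls (SD, n = 3), had a log2 fold change of −0.22. CTSB had −0.07, the tripeptidyl peptidase gene TPP1 had −0.10 and CTSZ had −0.48 with an SE of 0.40, which was −0.18 with the side as a term.

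The other glycosidases did not accompany GLA. GAA, which degrades glycogen, had a log2 fold change of −0.07, the β-glucuronidase gene GUSB had −0.13, the sialidase gene NEU1 had −0.12 and HEXA, a subunit of β-hexosaminidase, had −0.32. Those of GAA and HEXA were 0.16 and −0.12 with the side as a term. The unadjusted p of these 4 genes without this term ranged from 0.25 to 0.81 in edgeR. The interval of GUSB, −0.44 to 0.19, and that of NEU1, −0.44 to 0.19, lay inside a 1.5-fold change in either direction. The intervals of GAA and HEXA did not, so a change of that size in these 2 genes was not resolved with 3 libraries per group.

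No gene for lipid breakdown and export passed the test. ASAH1 (acid ceramidase) had a log2 fold change of 0.07, PPT1 (palmitoyl-protein thioesterase) 0.03, LIPA (acid lipase) −0.14, and the cholesterol exporters NPC1 and NPC2 −0.18 and −0.14. The intervals of all 5 lay inside a 1.5-fold change. The exception was PSAP, the precursor of the saposins that present lipids to hydrolases, at −0.22 with an SE of 0.50. PSAP was at 433.3, 494.1 and 210.0 CPM in the controls and at 161.5, 245.7 and 566.0 CPM after sedanolide. The high libraries were controls 1 and 2 and sedanolide 3, so its spread ran along the split of the libraries, and with the side as a term its log2 fold change was 0.12.

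Of the 5 proton pump genes, ATP6V0D1 had a log2 fold change of 0.13, ATP6V1A −0.31, ATP6V1B2 −0.04, ATP6V1H 0.17 and the accessory subunit gene ATP6AP1 −0.14. Those of ATP6V0D1, ATP6V1A and ATP6V1H were −0.03, −0.08 and −0.07 with the side as a term. None was near the threshold without that term, with FDR from 0.77 to 0.92 in edgeR. The 95% intervals of ATP6V0D1, ATP6V1A and ATP6V1H in that fit reached past a 1.5-fold change, so such a change was not resolved in them. Subunits of this one complex lay on opposite sides of the library split, since ATP6V1A was higher on the first side (85.8, 111 and 106 CPM against 62.8, 40.8 and 63.1 CPM) and ATP6V1H was lower there (44, 39.0 and 35.5 CPM against 58.7, 67.1 and 57.0 CPM).

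**Figure D2:**
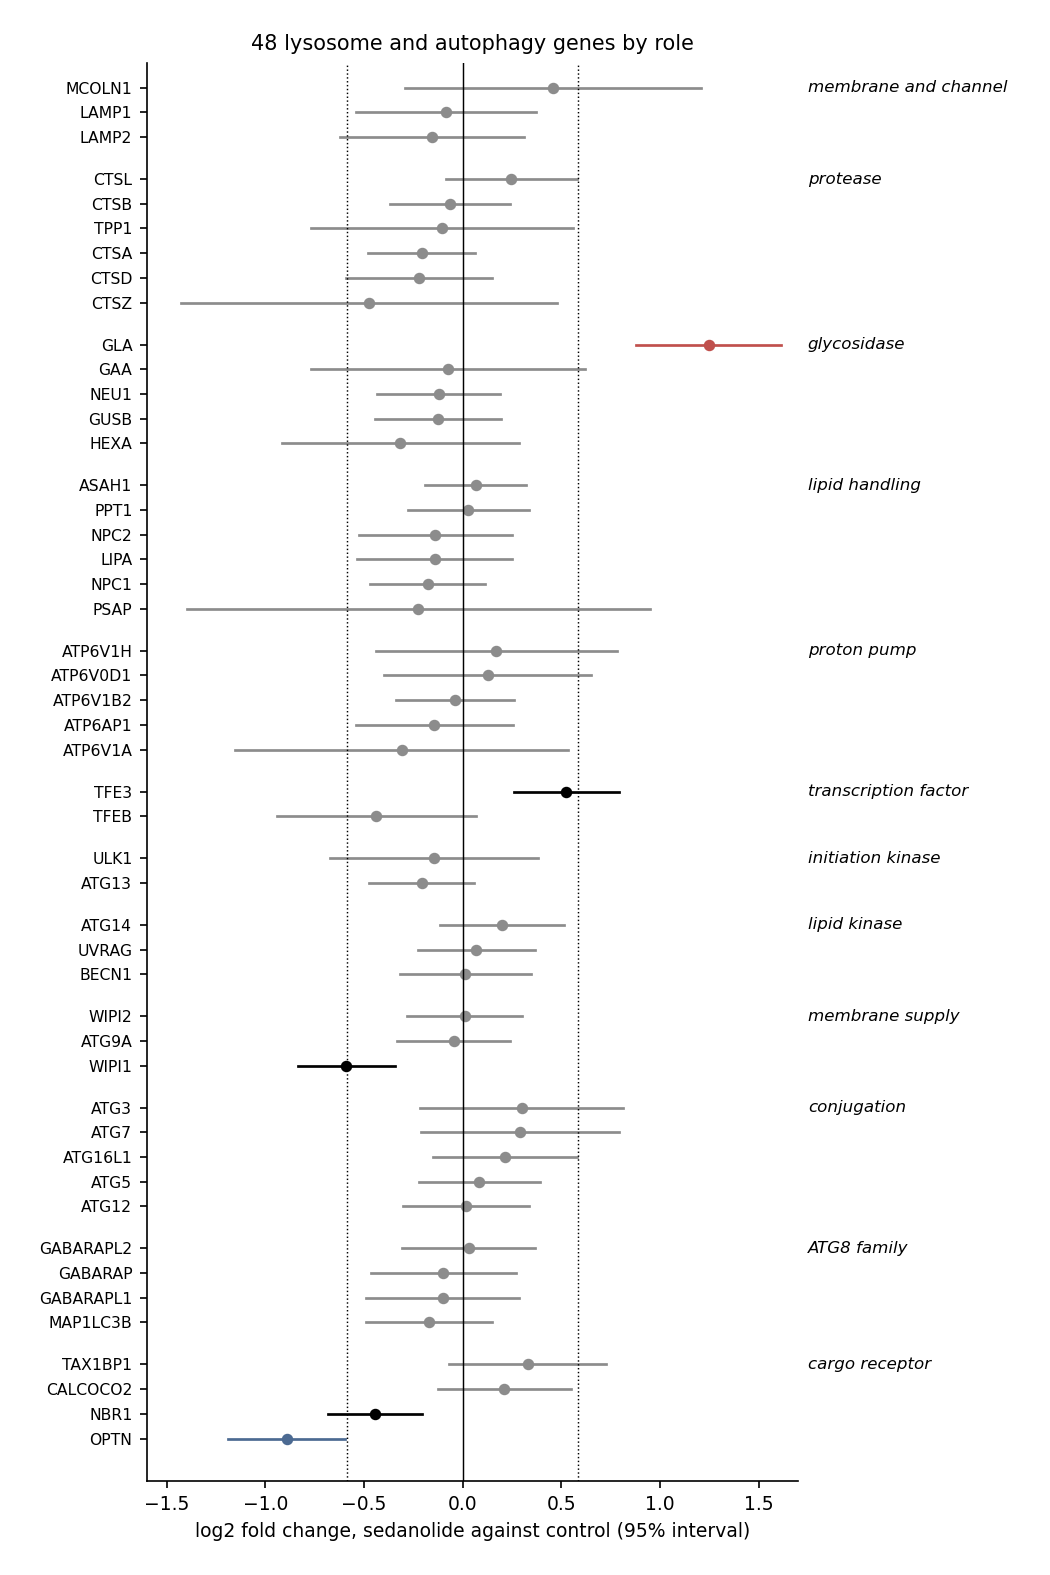
Log2 fold change of each of the 48 members, sedanolide against control (x axis), with its 95% interval, ordered by role. Dotted lines mark a 1.5-fold change, red and blue mark GLA and OPTN, which passed both thresholds, and black marks TFE3, WIPI1 and NBR1, with an unadjusted p under 0.05. The interval lay between the dotted lines for 27 members.

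On the autophagy side, neither gene that starts the process passed the test. The log2 fold change was −0.14 for ULK1, the initiating kinase, and −0.21 for its partner ATG13. The 95% interval of ULK1, −0.67 to 0.38, reached past a 1.5-fold change. ATG13 was at 145.2, 128.0 and 137.7 CPM in the controls and at 122.7, 122.6 and 110.7 CPM after sedanolide, all below the lowest control (unadjusted p = 0.11 in edgeR). With the side as a term its log2 fold change was −0.23 (unadjusted p under 0.05, FDR = 0.21 in edgeR). In the lipid kinase complex, BECN1 had a log2 fold change of 0.01, UVRAG 0.07 and ATG14 0.20. ATG14 was higher in all treated libraries by a small margin, at 9.15, 7.92 and 8.59 CPM in the controls and 10.6, 9.15 and 9.63 CPM after sedanolide (FDR = 0.61 in edgeR). The intervals of the 3 lay inside a 1.5-fold change.

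WIPI1 and WIPI2 bind the lipid that this kinase makes, but they differed. WIPI1 was at 111.9, 115.0 and 116.5 CPM in the controls and at 80.2, 75.2 and 73.0 CPM after sedanolide. Both groups were tight and well apart, with a log2 fold change of −0.59 and an SE of 0.10 (unadjusted p = 0.00069, FDR = 0.072 in edgeR). It was −0.64 within the first side and −0.59 within the second. WIPI1 passed both thresholds in DESeq2 and with the side, itself drawn from these data, as a term (edgeR FDR = 0.0062). Over the 17 alternatives, however, its FDR ranged from 5.6e-07 to 0.74. WIPI2 had a log2 fold change of 0.01 (95% interval −0.28 to 0.30), and ATG9A, whose product carries membrane to the growing structure, had −0.04. The difference between WIPI1 and WIPI2 was not itself tested. WIPI1 shares 829 exon bases with ARSG on the opposite strand, which had 23.0% of its counts and a log2 fold change of −0.14.

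The conjugation genes attach ATG8 proteins to the membrane. ATG3, ATG7, ATG16L1, ATG5 and ATG12 had log2 fold changes of 0.30, 0.29, 0.22, 0.09 and 0.02. All were above 0 and none had an unadjusted p under 0.20 in edgeR. With the side as a term those of ATG3, ATG7, ATG16L1, ATG5 and ATG12 were 0.13, 0.12, 0.30, 0.01 and 0.09. In that fit ATG16L1 had an unadjusted p under 0.05 (FDR = 0.17 in edgeR).

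No gene of the ATG8 family passed the test. MAP1LC3B, the gene of the LC3B protein used to count autophagosomes, was at 142.4, 158.1 and 128.2 CPM in the controls and at 119.0, 119.2 and 142.4 CPM after sedanolide, a log2 fold change of −0.17 with an SE of 0.14. GABARAP was at 96.6, 96.5 and 117.9 CPM and then 104.1, 106.4 and 80.0 CPM, a log2 fold change of −0.10. In both genes the groups overlapped. GABARAPL1 was at 11.9, 12.9 and 10.9 CPM and then 9.25, 10.9 and 13.1 CPM, a log2 fold change of −0.10. GABARAPL2 was at 62.5, 62.5 and 70.4 CPM and then 76.2, 67.2 and 56.1 CPM, a log2 fold change of 0.03. With the side as a term the log2 fold changes of MAP1LC3B, GABARAP, GABARAPL1 and GABARAPL2 were −0.09, −0.22, −0.01 and −0.07. The interval without it lay inside a 1.5-fold change in all 4 genes, and their FDR ranged from 0.66 to 0.95 in edgeR. GABARAP was the most abundant of the family per length (275.3 ± 13.7 TPM in controls, SD, n = 3) and GABARAPL1 the least (11.5 ± 2.45 TPM). Reads of MAP1LC3B and GABARAPL1 may be shared with the near-identical MAP1LC3B2 and GABARAPL3. Lipidation of these proteins, the usual measure of autophagy, does not show in transcript counts.

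The cargo receptors did not share a direction. NBR1, which like p62 binds ubiquitin and ATG8 proteins, was at 383, 404.3 and 387.1 CPM in the controls and at 278.2, 294.5 and 290.7 CPM after sedanolide. No library came near the other group, and the log2 fold change was −0.44 with an SE of 0.10 (unadjusted p = 0.0032, FDR = 0.15 in edgeR). It was −0.44 within either side. The FDR was 0.024 with the side as a term in edgeR and 0.00033 in DESeq2, with a fold change under 1.5 in both, and it ranged from 0.00033 to 0.88 over the 17 alternatives. CALCOCO2 (NDP52) and TAX1BP1, by contrast, had log2 fold changes of 0.21 and 0.33. TAX1BP1 was at 186.3, 175.5 and 231.9 CPM in the controls and at 280.3, 261.0 and 205.0 CPM after sedanolide, so the groups overlapped, and both genes were lower in every library of the first side than in any of the second. Their log2 fold changes were 0.12 and 0.20 with the side as a term.

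SQSTM1 and CCPG1 belong to the same class of receptors and were on a wider list of pathway genes, outside the 48. SQSTM1 was at 106.6, 85.7 and 126.8 CPM in the controls and at 274.4, 232.0 and 181.7 CPM after sedanolide. All treated libraries were above all controls, with a log2 fold change of 1.11 and an SE of 0.21 (unadjusted p = 0.00097, FDR = 0.080 in edgeR). CCPG1, a receptor for the endoplasmic reticulum, was at 45.3, 48.1 and 46.1 CPM and then at 68.4, 76.2 and 76.8 CPM, a log2 fold change of 0.67 with an SE of 0.11 (FDR = 0.051 in edgeR). Both missed the FDR threshold here and passed both thresholds with the side as a term (edgeR FDR = 0.0027 and 0.0051). Over the 17 alternatives the FDR ranged from 6.7e-05 to 0.65 for SQSTM1 and from 6.3e-06 to 0.65 for CCPG1, across edgeR, DESeq2 and limma. The difference between these receptors and OPTN or NBR1 was not itself tested.

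That wider list held 135 further lysosome and autophagy genes, of which 125 were tested and none was past both thresholds. At an unadjusted p under 0.05, 3 were higher (2.40%, background 5.35%) and 3 lower (2.40%, background 6.57%), which is under the background in both directions. Of 29 further hydrolases, PLA2G15 (log2 fold change −0.79, FDR = 0.30 in edgeR) and ACP2 (−0.33, FDR = 0.41 in edgeR) were lower at this p, and the next lowest p belonged to SMPD1 (−0.61). IDUA (0.90), CTSC (0.18) and HGSNAT (0.10) had the lowest p among those above 0. The hydrolase median was −0.16, and 24 of the 29 were below 0, against 49.3% of all genes tested. With the side as a term the median was −0.09. Of the 29, 16 were higher on the first side without overlap, where 21.0% of all genes tested were. The sides were drawn from these same genes, so this count is a description. The 22 membrane and sorting genes had a median of −0.01, with the lowest p among those reported in SLC17A5 (−0.25), SORT1 (−0.64), TPCN1 (−0.34), TMEM192 (0.25) and M6PR (0.38). The 12 further proton pump subunits had a median of 0.05, with the lowest p in ATP6V0E1 (0.43), ATP6V1F (0.25), ATP6V0A2 (0.23), ATP6AP2 (−0.31), ATP6V0A1 (−0.11) and ATP6V0C (−0.01). The 29 further autophagy genes had a median of −0.03, with the lowest p in TECPR1 (−0.32), VAMP8 (−0.19), ZFYVE1 (−0.30), VMP1 (0.20), RB1CC1 (0.25) and ATG101 (0.30). Among the 11 other receptors, after SQSTM1 and CCPG1, the lowest p belonged to PHB2 (0.22), BNIP3L (−0.41), TOLLIP (−0.22) and BNIP3 (−0.05). GALC, CTSF, CTSK, CTSO, CTSS, ULK2, MAP1LC3A and RETREG1 had at most 12 counts in any library and were not tested.

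**Figure D3:**
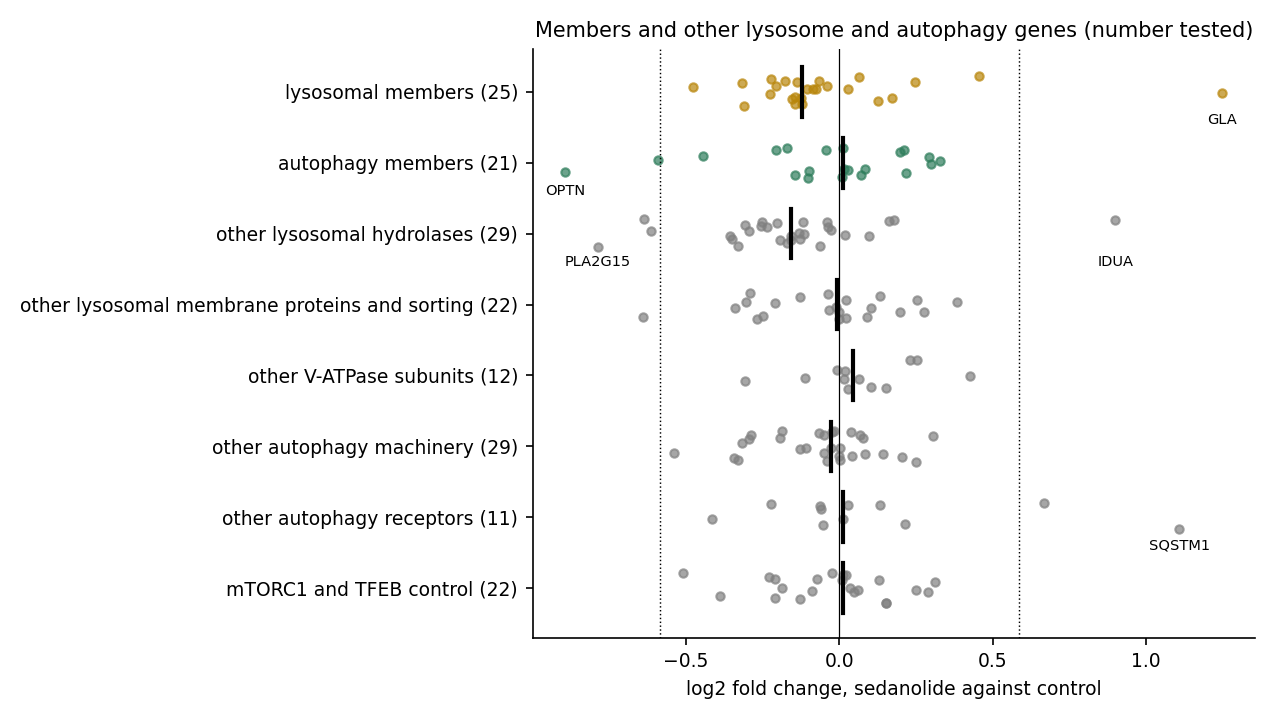
Log2 fold change (x axis) of each tested gene in the lysosomal and autophagy members and in 6 lists of further genes, with the number tested in parentheses. Each point is a gene, thick bars are list medians and dotted lines mark a 1.5-fold change. The medians lay between −0.16 and 0.05, and GLA, OPTN, PLA2G15, IDUA and SQSTM1 lay farthest out.

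Set side by side, the lysosomal members had a median log2 fold change of −0.12, with 18 of 25 below 0, and the autophagy members had 0.01, with 9 of 21 below 0. The median of all genes tested was 0.01, and 49.3% were below 0. With the side as a term the lysosomal median was −0.03 and that of the autophagy members was −0.01, and no test of either median was made. Without sedanolide 1 the medians were −0.03 and −0.05, so their order turned, and without sedanolide 3 they were −0.23 and 0.04. The 95% interval lay inside a 1.5-fold change for 13 lysosomal and 14 autophagy members, 27 of 48 in all (56.3%), against 39.4% of all genes tested. This share depends on the SE, whose median was 0.15 for the members and 0.19 for all genes tested.

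Many lysosomal genes differed between the sides of the split. The libraries of the first side did not overlap with those of the second in 28 members, where 44.1% of all genes tested behaved so, and since the component was computed from the same genes this is a description. Of the 25 lysosomal members 13 were higher on the first side and 3 lower, and of the 21 autophagy members 4 were higher and 8 lower, where 21.0% of all genes tested were higher and 23.1% lower. After PSAP, the widest ratios were those of CTSZ, with a log2 ratio of first to second side of 0.90 in controls and 1.12 after sedanolide, and ATP6V1A, with 0.65 and 1.02. GAA had 0.68 and 0.85, TPP1 0.59 and 0.80 and HEXA 0.58 and 0.70. In the other direction, MCOLN1 had −0.59 and −0.92 and ATP6V1H −0.50 and −0.80. In 46 of the 48 members the ratio had the same sign in both groups, 24 above and 22 below 0, the exceptions being CTSD and UVRAG. The ratios of GLA were −0.25 and −0.39 and those of OPTN −0.23 and −0.08, and in both genes the sides overlapped. The ratios of TFE3 and NBR1 were among the closest to 0, with 0.01 and 0.03 for TFE3 and 0.02 and 0.02 for NBR1. CTSZ shares 6136 exon bases with NELFCD on the opposite strand, which had 310.5% of its counts. What separated the libraries is not given in the labels, and the share of mitochondrial transcripts moved with it; its part in these ratios was not tested.

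**Figure D4:**
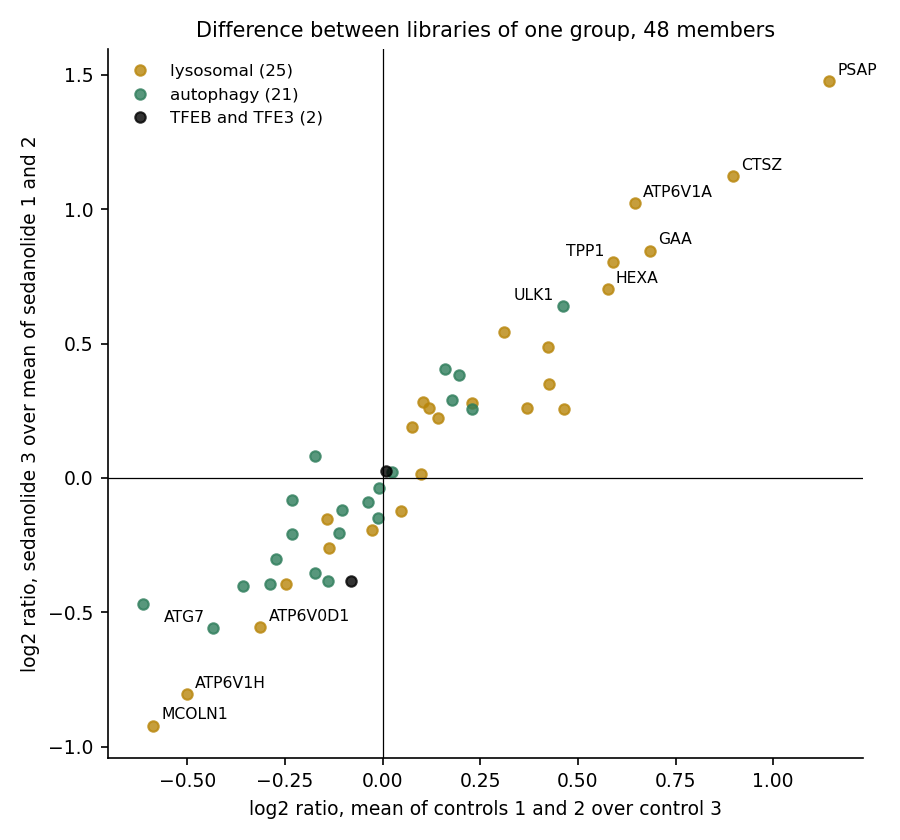
Log2 ratio of normalized CPM between libraries of the same group, for the 48 members. The x axis gives the mean of controls 1 and 2 over control 3 and the y axis sedanolide 3 over the mean of sedanolide 1 and 2, and each point is a gene. PSAP, CTSZ, ATP6V1A, GAA, TPP1 and HEXA lay at the upper right and MCOLN1 and ATP6V1H at the lower left.

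None of the genes with the TFEB and TFE3 E-box passed the test of treatment. LAMP1, GAA, CTSA, ATP6V0D1, MCOLN1 and ATG3 ranged from −0.21 to 0.46 in log2 fold change, and none had an unadjusted p under 0.05 in edgeR. Of all genes tested 5.35% were higher and 6.57% lower at this p, so 6 genes are too few to show a lack of response. The 95% intervals of GAA, ATP6V0D1, MCOLN1 and ATG3 reached past a 1.5-fold change. The 9 members without a promoter entry were not searched. LAMP1 and GAA, with 2 copies each shown above, were higher on the first side of the split, and MCOLN1, also with 2 copies, was lower there. Of the 13 members with an ARE core only GLA had an unadjusted p under 0.05 in edgeR (7.69% higher, beside 5.35% of all genes tested). Its match began 17 bases after the annotated start. The rest of these 13 ranged down to −0.48, in CTSZ.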

How the data were processed

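RNA of 3 control and 3 sedanolide-treated samples was sequenced as 150 bp paired-end reads. The authors used FastQC for read quality, Trimmomatic for trimming, STAR for alignment to GRCh38 and RSEM for quantification. Tool versions, the annotation release and the strand setting are not given in the sources used here. The deposited first table holds expected counts without normalization, which were rounded. The deposited second table holds log2(TPM + 1) for 11006 genes and reporters, by a filter that is not stated, and ATG14 is not among the members found there.

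Symbols and positions came from GENCODE 44. Counts were analyzed in R 4.3.3 with edgeR 4.0.16 (filterByExpr, TMM, robust quasi-likelihood test, Benjamini-Hochberg over 14104 genes and reporters), with DESeq2 1.42.0 and limma 3.58.1 as alternatives. A call needed a 1.5-fold change and an FDR of 0.05. Intervals are 95% intervals from the SE and the test's degrees of freedom. The procedure was run on simulated libraries with a common dispersion for all genes and no split between libraries. That setting differs from these data, so the run does not test the calls made here. No replicate pair agreed within sampling noise.

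The members, lists and tests were chosen with earlier results of these data known. Values by library are given for members past both thresholds, or with an unadjusted p under 0.05 and groups that do not overlap, for the 3 lowest p of each side, and for TFEB, TFE3 and the ATG8 family. MCOLN1, PSAP, ATP6V1A, ATP6V1H, ATG13, ATG14, TAX1BP1, SQSTM1 and CCPG1 were shown in addition after their values were seen. Of further lists, the 3 lowest p in each direction are named, except 1 gene that is not reported here and stays in all fits and counts. Each member had at least 149 counts in every library.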

Additional observations from a re-analysis of the deposited data

How the results depend on the processing

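GLA and OPTN were the members past both thresholds with either scaling, either count filter, limma-voom, the TPM tables and no fold change minimum. DESeq2 and the fit with the side as a term added WIPI1, with 328 and 381 genes past both thresholds over all genes against 95, and testing all genes with at least 1 count gave 158. With the replicate block no member passed (0, and 0 of all genes, against 283 higher and 489 lower at an unadjusted p under 0.05 in edgeR), although the same 2 members were higher and the same 3 lower at an unadjusted p under 0.05. The same-number libraries had residual correlations of −0.13, −0.29 and −0.73. These were taken over all tested genes and carry the library split, so they cannot show whether the numbers pair the libraries. With the side as a term 5 members were higher and 7 lower at an unadjusted p under 0.05, and 5 were lower with the TPM tables. Without one library in turn, 0 to 1 members were past both thresholds, 2 to 5 were higher and 3 to 7 lower at an unadjusted p under 0.05, and 0 to 136 of all genes were past both thresholds, with 2 libraries left in a group. The shares of all genes at this p in these fits ranged from 2.47% to 10.8% higher and from 3.80% to 12.2% lower. The lysosomal median was below 0 in every fit. It ranged from −0.233 in the log2(TPM + 0.1) table, where the median of all genes was −0.079, to −0.027 with the side as a term. It was −0.225 without sedanolide 3, −0.21 without control 3 and −0.035 without sedanolide 1. It was −0.04 without control 2, −0.07 without control 1 and −0.07 without sedanolide 2. The autophagy median changed sign, to −0.03 with library size only, −0.05 without sedanolide 1, −0.01 without control 1, −0.002 without control 2 and −0.01 with the side as a term, and was 0.05 without control 3 and 0.04 without sedanolide 3. The autophagy median was −0.13 in the TPM tables, where the median of all genes was −0.07 or −0.08, and the cause was not tested. A TPM minimum of 1 removed no gene. The SE of the log2 fold change was widest for PSAP (0.50), CTSZ (0.40), ATP6V1A (0.36) and MCOLN1 (0.32).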

Other observations

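The mTORC1 complex, when active, holds TFEB and TFE3 in the cytosol. Among 22 tested genes of this complex and of the control of it and of these factors, none was past both thresholds. Their median log2 fold change was 0.01. FNIP2, a partner of folliculin, was at 91.0, 102.1 and 85.0 CPM in the controls and at 59.0, 63.2 and 73.2 CPM after sedanolide, all lower than the lowest control (log2 fold change −0.51, SE 0.13, FDR = 0.19 in edgeR). RHEB, the GTPase that activates mTORC1, had a log2 fold change of 0.29 (unadjusted p = 0.043, FDR = 0.39 in edgeR), and its groups did not overlap. The next lowest p belonged to RRAGB (−0.39), DEPTOR (−0.21), AKT1S1 (0.25) and YWHAB (0.31).

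Among all 234 tested genes whose promoter held TCACGTGA, the median log2 fold change was 0.01, and 4.27% were higher and 3.42% lower at an unadjusted p under 0.05 in edgeR. Among the 10079 without it the median was 0.01, with 5.47% and 6.50%. For the ARE core, the 2024 genes with a match had 5.98% higher and 5.88% lower, and the 8289 without had 5.31% and 6.56%.

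Of the hepatocyte markers, TTR, FGB and ALB were lower in every treated library, with log2 fold changes of −0.53, −0.45 and −0.43 (FDR 0.13 to 0.24 in edgeR). Of all genes tested, 9.66% were lower in this way. The summed level of all 8 markers was 20340 to 32860 CPM in the controls and 15240 to 24550 CPM after sedanolide, and lower on the second side in both groups. AFP had the most counts of the 8 in every library (92356 to 435339), so it weighs most in this sum. Of the 8 markers 7 had a log2 fold change below 0, and the highest was 0.06. Without overlap, 3 were higher on the first side and 1 lower, where 21.0% of all genes tested were higher and 23.1% lower. APOA1 had 36848, 38745 and 40022 counts on the first side and 48420, 52257 and 64450 on the second. PDGFRB had a log2 fold change of −1.42 (FDR = 0.16 in edgeR), with COL1A1 and COL3A1 at 0 to 3 counts. AIF1 had −0.79 at 0.894 to 2.70 summed CPM of its list. PECAM1 had 0.07.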
